A study of Mus musculus with 9 samples.

Results

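Synaptic adhesion and organizer genes encode the surface and secreted proteins that join the presynaptic and the postsynaptic membrane and recruit release machinery and receptors to the contact. Here they were 58 genes of 14 families, taken by gene symbol: the neurexins (Nrxn), the receptor phosphatases of the LAR type (Ptprd, Ptprf, Ptprs), the neuroligins (Nlgn), and the Lrrtm, Slitrk, Lrfn, Il1rapl, cerebellin (Cbln), latrophilin (Adgrl), teneurin (Tenm), Flrt, contactin (Cntn), Cadm and contactin-associated protein (Cntnap) families. All 58 were found among the 48709 genes of the deposited tables, and 56 of them were among the 17361 genes that passed the filter on low counts. Adgrl4 and Cbln3 did not pass, with at most 0.433 and 0.453 CPM in any library, where CPM are counts scaled to library size.

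RNA was sequenced from nuclei sorted for NeuN, a protein of neuronal nuclei, from the hippocampus of 6-month-old mice on the C57BL/6J background. The 3 groups of 3 libraries were wild-type (WT) mice on vehicle (tap water), Tg4-42 mice on vehicle, and Tg4-42 mice given caffeine at 300 mg/l in the drinking water for 4 months from the age of 2 months. Tg4-42 mice express human Aβ4-42 fused to the signal peptide of mouse thyrotropin-releasing hormone under the neuronal Thy1 promoter and are a model of neuron loss in the CA1 field. No WT mice on caffeine were analysed here, so the caffeine comparison is within Tg4-42 mice. The methods give 3 mice in each group for the isolation of nuclei, which matches the libraries, while the labels give 6. A library is called a replicate here, and p-values measure the spread between libraries.

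At excitatory and inhibitory synapses the presynaptic neurexins and LAR-type phosphatases act as hubs. They bind a range of postsynaptic partners: neuroligins and LRRTMs bind neurexins, SLITRKs and IL1RAPL1 bind the phosphatases, and cerebellins are secreted proteins that bridge neurexins to glutamate receptors of the delta type. Latrophilins bind teneurins and FLRTs in another trans-synaptic group, and in the hippocampus different sets of these proteins mark the inputs onto CA1, CA3 and dentate gyrus neurons.

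Upstream sequence is shown for 3 genes whose CPM was lower in every caffeine library than in every vehicle library, and for Nlgn2, the member with the highest log2 fold change in that comparison. Each is the 250 bases before the RefSeq start on build GRCm38.p6, read 5′ to 3′ on the gene's strand, which is the minus strand for all 4. Both strands were searched for 5 motifs. These were the GC box spelled GGGCGG, the TATA box spelled TATAAA, the cyclic AMP response element (CRE) spelled TGACGTCA, the AP-1 motif spelled TGAGTCA and the E-box spelled CACGTG. Matches on either strand are in capitals. The windows are chr14:108914240-108914489 for Slitrk1, chr2:140671477-140671726 for Flrt3, chr2:172043467-172043716 for Cbln4 and chr11:69837785-69838034 for Nlgn2, and none overlaps an annotated exon.
Slitrk1: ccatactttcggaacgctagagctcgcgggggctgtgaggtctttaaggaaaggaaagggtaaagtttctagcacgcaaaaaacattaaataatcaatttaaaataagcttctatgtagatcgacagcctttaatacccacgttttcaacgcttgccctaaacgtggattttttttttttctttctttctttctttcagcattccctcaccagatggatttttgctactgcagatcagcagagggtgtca
Flrt3: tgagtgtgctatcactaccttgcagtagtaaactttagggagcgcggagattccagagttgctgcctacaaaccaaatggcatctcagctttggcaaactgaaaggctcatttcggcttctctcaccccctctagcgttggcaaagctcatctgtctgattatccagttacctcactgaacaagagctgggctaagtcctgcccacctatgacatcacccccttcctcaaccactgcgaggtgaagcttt
Cbln4: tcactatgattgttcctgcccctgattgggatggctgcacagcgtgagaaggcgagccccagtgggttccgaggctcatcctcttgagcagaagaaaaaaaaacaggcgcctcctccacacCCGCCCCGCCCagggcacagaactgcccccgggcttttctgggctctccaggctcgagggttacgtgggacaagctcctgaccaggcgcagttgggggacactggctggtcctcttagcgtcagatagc
Nlgn2: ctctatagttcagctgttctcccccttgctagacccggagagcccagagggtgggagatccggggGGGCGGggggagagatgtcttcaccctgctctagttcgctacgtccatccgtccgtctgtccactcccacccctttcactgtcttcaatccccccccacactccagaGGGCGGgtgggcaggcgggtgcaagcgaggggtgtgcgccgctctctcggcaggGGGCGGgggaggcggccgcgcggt

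The Slitrk1 and Flrt3 windows held none of the 5 motifs and had a GC content of 40.4% and 50%. The Cbln4 window, at 60.8% GC, held 2 GC box matches that overlap by 1 base, and the Nlgn2 window, at 67.6% GC, held 3. RefSeq starts were in the table used for 42 of the 58 genes, with 56 start sites; Cntnap4, Slitrk4 and Lrrtm2 are named only. The GC box was found upstream of 30.4% of these 56 starts against 32.7% of all 32851 starts, and the TATA box of 8.93% against 12.4%. The CRE was found upstream of 3.57%, which is only 2 starts, against 1.55%. AP-1 was found upstream of 3.57%, also 2 starts, against 4.46%, and the E-box of 8.93%, or 5 starts, against 6.02%. Starts of the same gene were counted separately. The median GC content was 57.4% against 52.4%. A match describes these letters and says nothing of a factor's binding.

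Libraries held 9342945 to 16376922 counts, of which 0.921% to 1.25% fell in the 58 genes. The transgene cassette checked the genotype labels: Trh, whose signal peptide it carries, averaged 2.76 CPM in WT mice against 58.5 and 55.2 CPM in vehicle and caffeine Tg4-42 mice. Markers of neurons summed to 5601 to 7967 CPM, and those of oligodendrocytes, astrocytes and microglia to 229 to 463, 345 to 555 and 37.7 to 70.3 CPM, so RNA of other cell types was present. In each group replicates 1 and 2 came from sequencing lane 6 and replicate 3 from lane 7.

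The most abundant members in WT neurons, compared per kilobase of annotated exon, were the neurexin ligand Lrrtm1 at 96.7 ± 16.1 CPM per kilobase (SD, n = 3) and the immunoglobulin adhesion gene Cadm1 at 90.2 ± 8.90. Flrt3 followed at 70.7 ± 6.59, then Cntn1 at 64.0 ± 3.57, Slitrk5 at 63.5 ± 6.93 and Slitrk3 at 62.3 ± 5.09. The ranges of Lrrtm1 and Cadm1 overlapped, as did those of Flrt3, Cntn1, Slitrk5 and Slitrk3, so their order within these sets lies inside the spread. The highest members of the other families were Ptprd at 47.3 ± 12.8, Nrxn3 at 46.5 ± 5.87, Lrfn5 at 46.5 ± 3.45, Nlgn1 at 30.6 ± 2.17, Cntnap5c at 27.6 ± 9.44, Tenm2 at 23.6 ± 2.91 and Il1rapl1 at 23.0 ± 2.24 CPM per kilobase. Adgrl1 stood at 17.1 ± 1.94 and Cbln2 at 13.6 ± 3.60. The lowest of the 56 were Cbln1 at 1.40 ± 0.282, Nrxn2 at 1.41 ± 0.312 and Slitrk6 at 1.63 ± 1.80, and Slitrk6 ran from 0.152 to 3.63 CPM per kilobase within the WT group. Exon length here is the union over annotated isoforms, which lowers the value of genes with many alternative exons.

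Caffeine was compared with vehicle in Tg4-42 mice to ask how long-term intake bears on neuronal transcription. Of the 56 tested members 47 had a log2 fold change below 0, against 51.5% of all tested genes, and the median was -0.24 against -0.01 over all genes. Cntnap4, Slitrk1 and Flrt3 fell by the edgeR quasi-likelihood test with Benjamini-Hochberg adjustment over all genes, which is 3 of 56, beside 0.881% of all genes called in either direction. Before adjustment 21 members were lower at p under 0.05, which is 37.5% of the members against a background of 9.82%, and 0 were higher against a background of 7.15%. The 3 caffeine libraries lay entirely below the 3 vehicle libraries for 22 members, or 39.3%, against 12.6% of all genes, and entirely above for 0 members against 10.4%. The median moved from -0.24 to -0.12 when the trend of fold change with gene span was removed and to -0.15 in a fit to the 6 libraries of lane 6 alone. Values written with ± in parentheses below are log2 fold changes with their SE. In this bulk RNA, fewer cells of a type and less RNA per cell cannot be told apart.

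**Figure D1:**
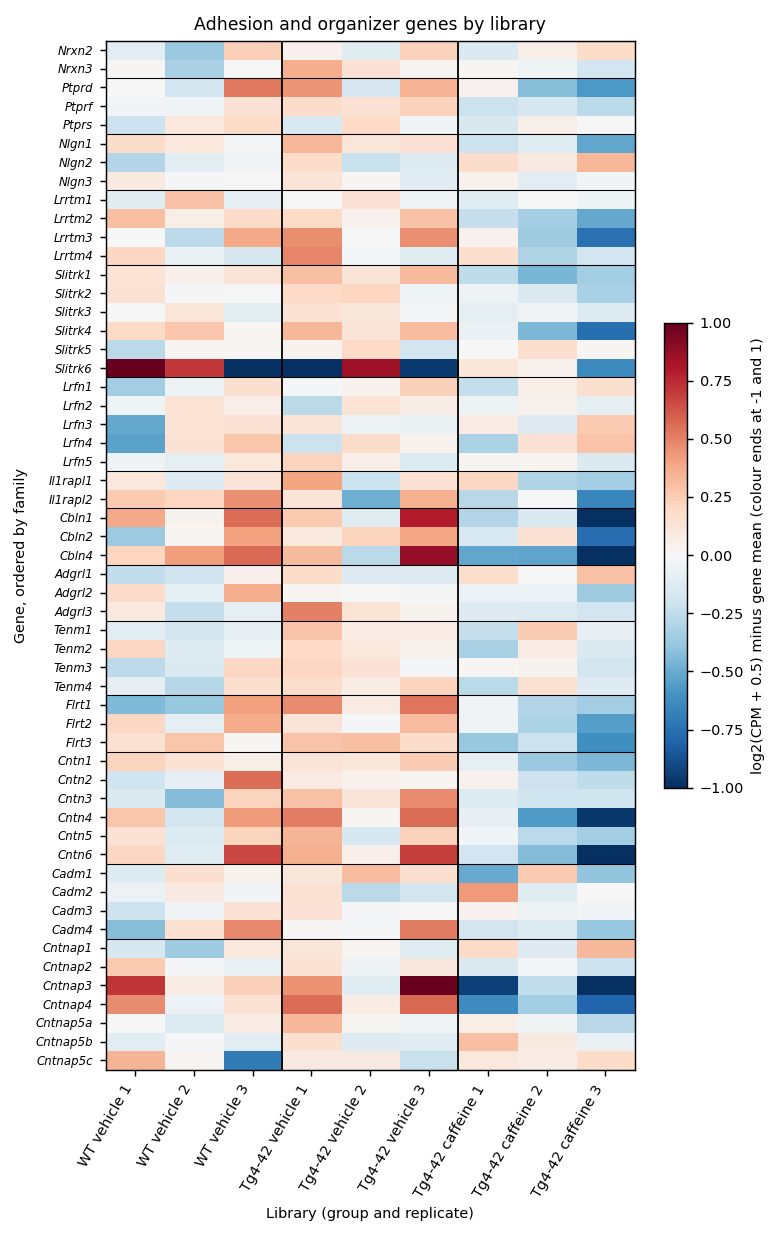
Heat map of 55 of the 56 tested members (rows, ordered by family, with lines between families) in the 9 libraries (columns), coloured by log2(CPM + 0.5) minus the gene's mean over the libraries, with colours ending at -1 and 1. Caffeine replicate 3 held the lowest value of 26 of them, and Slitrk6 varied within both vehicle groups.

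Marker genes of hippocampal cell types also stood at different levels in these libraries. Summed CPM of the 10 dentate granule markers was 406 to 881 in vehicle and 945 to 1206 in caffeine libraries, with 10 of 10 above 0 on the log2 scale and Plk5 called at 1.52 ± 0.26 (SE, adjusted p = 0.0385). Interneuron markers, led in abundance by Gad1, summed to 1033 to 1570 in vehicle against 833 to 984 CPM in caffeine libraries. Of these 9 markers 8 were below 0, and Slc32a1, the vesicular GABA transporter, was called at -0.93 ± 0.20 (SE, adjusted p = 0.0462). Sums were also lower for markers of subiculum and neocortex (231 to 285 against 163 to 214 CPM, 8 of 9 genes below 0) and CA1 (608 to 716 against 557 to 605 CPM, 6 of 7 below 0). Of the 5 CA3 markers 4 were above 0, with a median of 0.22, and the most abundant, Spock1, was called at -0.90 ± 0.16 (SE, adjusted p = 0.0385), so that their sum was 281 to 322 against 228 to 264 CPM. The Cajal-Retzius sum, mostly Reln, was 79 to 100.1 against 54.3 to 63.3 CPM. Of the 3 genes of that list that passed the filter, 2 were below 0. The other, Trp73, was above 0 (1.46 ± 0.57) at means of 0.519 CPM on vehicle and 1.48 CPM on caffeine. The CA2 ranges overlapped at 164 to 181 and 178 to 222. Oligodendrocyte markers were 332 to 463 against 229 to 334, astrocyte markers 424 to 552 against 345 to 454 and microglial markers 46.8 to 70.3 against 37.7 to 46.5 CPM. No list had a defining marker at 0 in all libraries. Their part in the lower values of the adhesion genes was not tested.

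Among the presynaptic hubs no gene passed the adjusted test. Nrxn3 was 805, 694 and 639 CPM on vehicle and 633, 608 and 549 CPM on caffeine, with 631, 501 and 627 CPM in WT mice. The caffeine values were just below those on vehicle and mixed with those of WT mice (-0.26 ± 0.14, adjusted p = 0.364). Nrxn2, at a lower level, was 21, 18.7 and 24.0 CPM on vehicle and 18.4, 21.2 and 23.1 CPM on caffeine, with overlap (-0.02 ± 0.18, adjusted p = 0.965). The LAR-type phosphatases had a median of -0.41. Ptprf itself was 49.1, 47.9 and 50.8 CPM on vehicle and 37.1, 38.4 and 35.7 on caffeine, a log2 fold change of -0.41 ± 0.12 (SE, adjusted p = 0.104). Its caffeine values were all below both other groups, while Ptprd, at 1321, 869 and 1241 against 1003, 724 and 653 CPM, overlapped (-0.53 ± 0.21, adjusted p = 0.226). Ptprs was at -0.05.

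**Figure D2:**
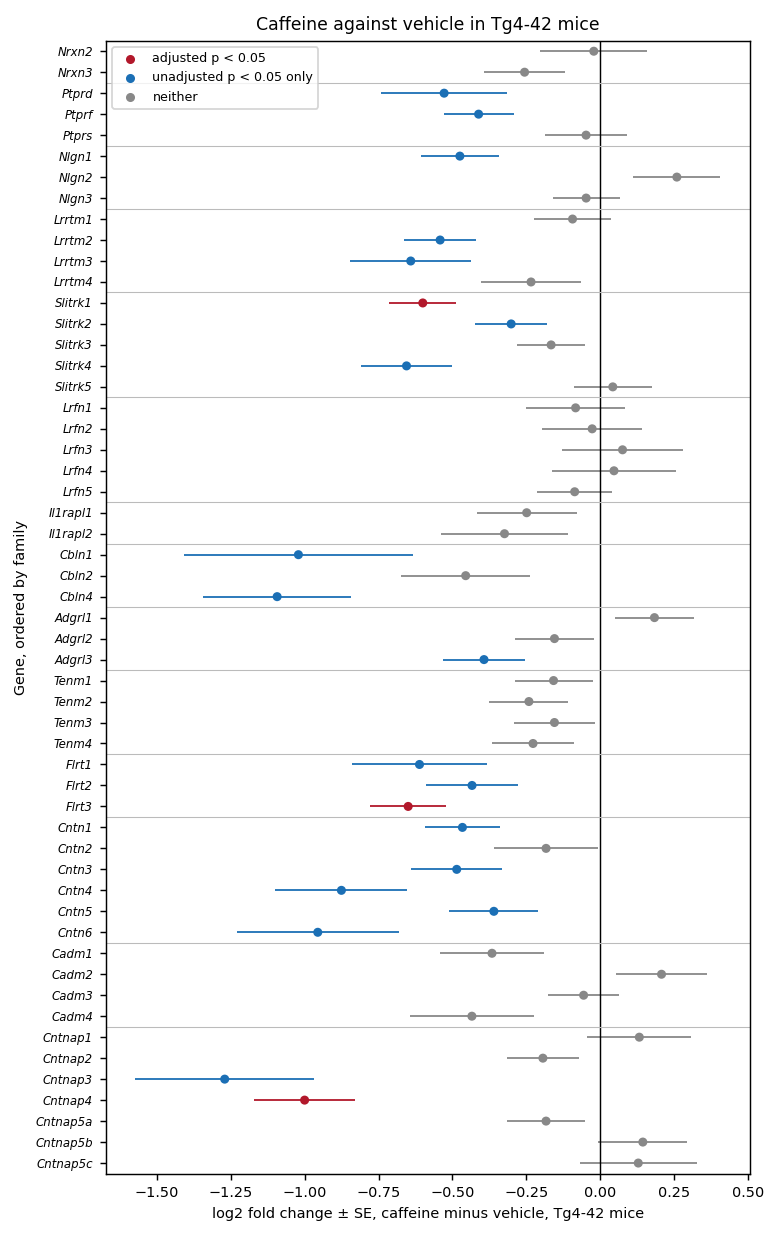
Log2 fold changes (points) with their SE (bars) between caffeine and vehicle Tg4-42 mice, 3 libraries a group, for 54 of the 56 tested members ordered by family. Slitrk6 (-0.10 ± 1.11) was left out for scale. The red points, Cntnap4, Slitrk1 and Flrt3, passed the adjusted test, and the 18 blue points have an unadjusted p under 0.05 only.

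Slitrk1, a leucine-rich repeat partner of the LAR-type phosphatases, lies at chr14:108908800-108914158 on build mm10. It stood at 133, 118 and 134 CPM in vehicle Tg4-42 mice, 90.4, 78.5 and 84.9 CPM in caffeine Tg4-42 mice and 119, 112 and 118 CPM in WT mice. All 3 caffeine values were below all 6 others. The log2 fold change was -0.60 ± 0.11 (SE, adjusted p = 0.0385, edgeR quasi-likelihood test), from a mean of 128 ± 8.84 to 84.6 ± 5.94 CPM (SD, n = 3). Slitrk4 showed the next smallest p in its family, with 221, 192 and 217 CPM on vehicle and 168, 129 and 104 CPM on caffeine, which did not overlap (-0.66 ± 0.15, adjusted p = 0.0562). Slitrk2 had -0.30 ± 0.12 (adjusted p = 0.223) and Slitrk3 -0.17 ± 0.12 (adjusted p = 0.496). Slitrk5, the family's most abundant member per kilobase, was 360.0, 403 and 310.1 CPM on vehicle and 353, 395 and 358 CPM on caffeine, with the groups mixed (0.04 ± 0.13, adjusted p = 0.902).

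**Figure D3:**
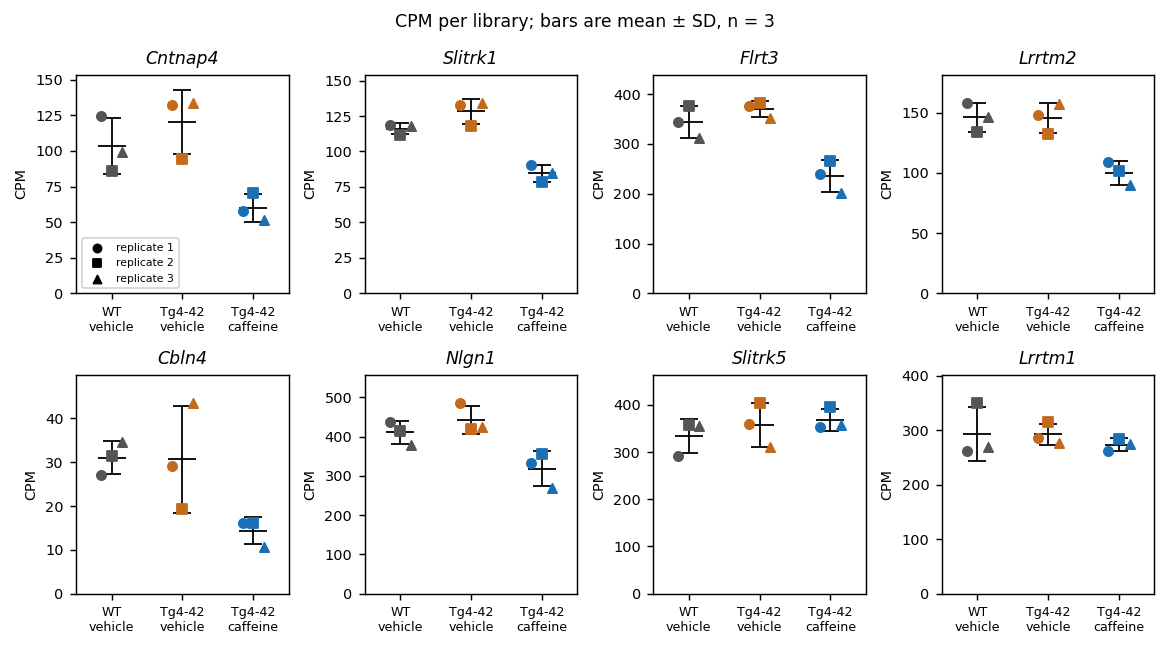
CPM of 8 members in each library (points, with a marker shape per replicate number) by group, with the mean and SD over 3 libraries as bars; axes start at 0. The caffeine points of Cntnap4, Slitrk1, Flrt3, Lrrtm2, Cbln4 and Nlgn1 lie below all points of both other groups, while those of Slitrk5 and Lrrtm1 are mixed with them.

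The LRRTMs, postsynaptic ligands of neurexins, lay between -0.64 and -0.09. Lrrtm2, an excitatory organizer, was 148, 133 and 157 CPM on vehicle, 109, 102 and 89.6 CPM on caffeine and 158, 134 and 146 CPM in WT mice. Its caffeine values were again below all others, but the adjusted p of 0.0503 was just over the threshold (-0.54 ± 0.12). Exons of Lrrtm2 overlap those of Ctnna1 on the other strand, and without strand information reads there cannot be told apart. Lrrtm3 was 309, 225 and 308 against 231, 175 and 133 CPM, with replicate 1 on caffeine inside the vehicle range (-0.64 ± 0.20, adjusted p = 0.138). The abundant Lrrtm1 stood at -0.09 ± 0.13 (adjusted p = 0.766) and Lrrtm4 at -0.23 ± 0.17 (adjusted p = 0.518).

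Neuroligins, the postsynaptic receptors of neurexins, had values of either sign. Nlgn1, found at excitatory synapses, was 485, 419 and 426 CPM on vehicle and 332, 355 and 269 CPM on caffeine, which did not overlap (-0.47 ± 0.13, adjusted p = 0.0955). Nlgn2, found at inhibitory synapses, was 34.2, 25.8 and 27.5 CPM on vehicle and 34.3, 32.2 and 38.0 CPM on caffeine. This is the highest log2 fold change of the 56 members, 0.26 ± 0.15, yet the groups overlapped and the adjusted p was 0.393. Nlgn3 had -0.05. The 5 Lrfn genes, which encode the postsynaptic SALM proteins, lay between -0.09 and 0.08, and Lrfn5 was -0.09 ± 0.13 (adjusted p = 0.779). Il1rapl1 was -0.25 ± 0.17 (adjusted p = 0.488) and Il1rapl2 -0.32 ± 0.21 (adjusted p = 0.471).

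The secreted cerebellins had the lowest family median, -1.02 over 3 tested genes. That median is the value of Cbln1, which held 433 counts over all libraries, against 3083 for Cbln4 and 4783 for Cbln2. Cbln4 was 27.1, 31.3 and 34.7 CPM in WT mice, 29.2, 19.3 and 43.4 CPM in vehicle Tg4-42 mice and 16.2, 16 and 10.8 CPM in caffeine Tg4-42 mice. The vehicle libraries were far apart, but all exceeded the caffeine values (-1.09 ± 0.25, adjusted p = 0.0580). Cbln1 was 4.00, 2.95 and 6.02 CPM on vehicle and 2.57, 2.90 and 0.846 CPM on caffeine, and its low value is that of caffeine replicate 3 (-1.02 ± 0.39, adjusted p = 0.195). Cbln2 was 40.5, 44.2 and 49.4 against 34.0, 41.7 and 22.1 CPM with overlap (-0.46 ± 0.22, adjusted p = 0.311).

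In the latrophilin, teneurin and FLRT group the 3 Flrt genes were lower on caffeine than on vehicle without overlap, beside 12.6% of all genes. Flrt3, which encodes a latrophilin ligand of the postsynaptic membrane, lies at chr2:140650914-140671469. It was 377, 382 and 351 CPM in vehicle Tg4-42 mice, 239, 266 and 202 CPM in caffeine Tg4-42 mice and 344, 376 and 312 CPM in WT mice. The caffeine values were below the other 6, and the mean fell from 369.8 ± 16.4 to 236 ± 32.1 CPM (SD, n = 3), a log2 fold change of -0.65 ± 0.13 (SE, adjusted p = 0.0399, edgeR quasi-likelihood test). Flrt2 was 134, 120.0 and 151 against 119, 97.6 and 82.9 CPM (-0.43 ± 0.15, adjusted p = 0.170). Flrt1, at a lower level, was 20.5, 15.5 and 21.4 against 14.2, 11.8 and 11.4 CPM (-0.61 ± 0.23, adjusted p = 0.191). Its WT libraries, at 10.6, 11.1 and 19.5 CPM, overlapped both Tg4-42 groups, and caffeine against WT was -0.14 ± 0.23. Neither Flrt1 nor Flrt2 passed the adjusted test.

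Latrophilins, the receptors of FLRT proteins, and teneurins had log2 fold changes nearer to 0. Adgrl3, a latrophilin, was 303, 235 and 219 CPM on vehicle and 195, 194 and 187 CPM on caffeine, against 228, 181 and 200.4 CPM in WT mice (-0.39 ± 0.14, adjusted p = 0.163). Its vehicle libraries were all above the caffeine libraries and overlapped those of WT mice. Adgrl1 was among the 3 members with the highest log2 fold change, 0.18 ± 0.13, with 182, 146 and 147 against 181, 161 and 197 CPM and an adjusted p of 0.516. The 4 teneurins lay at -0.24 to -0.16 and their groups overlapped, as for Tenm2 (-0.24 ± 0.13, adjusted p = 0.380).

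Contactins are immunoglobulin proteins anchored to the neuronal surface. Of the 6, 5 were lower at an unadjusted p under 0.05, beside 9.82% of all genes. Cntn1 was 597, 591 and 653 CPM on vehicle and 509.8, 422 and 401 CPM on caffeine (-0.47 ± 0.13, adjusted p = 0.0904). Cntn4 was 196, 139 and 203 against 129.9, 92.6 and 70.2 CPM (-0.88 ± 0.22, adjusted p = 0.0860). Cntn6 was 59.6, 48.3 and 75.6 against 40.6, 34.4 and 19.5 CPM (-0.96 ± 0.27, adjusted p = 0.118). For these 3 the groups did not overlap, beside 12.6% of all genes lower without overlap, and caffeine replicate 3 was the lowest library of each. Cntn3 was 68.0, 60.3 and 76.8 against 50.1, 48.1 and 48.2 CPM, also apart (-0.49 ± 0.15, adjusted p = 0.129), and Cntn5 overlapped (-0.36 ± 0.15, adjusted p = 0.238). Of the Cadm genes, Cadm1 was 999, 1144 and 1035 CPM on vehicle and 654, 1108 and 703 CPM on caffeine, where replicate 2 stood with the vehicle libraries (-0.37 ± 0.18, adjusted p = 0.304). Cadm2 had the second highest log2 fold change of the members, 0.21 ± 0.15 (adjusted p = 0.529).

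Cntnap4, a neurexin-like membrane protein studied in GABA-releasing and dopaminergic neurons, had the smallest p of the 56. It lies at chr8:112570043-112882717 and its exons overlap those of Gm45904 on the other strand. It was 133, 94.7 and 134 CPM in vehicle Tg4-42 mice, 57.8, 70.7 and 51.7 CPM in caffeine Tg4-42 mice and 125, 86.2 and 99.0 CPM in WT mice. All caffeine values were below all 6 others, and the log2 fold change was -1.0 ± 0.17 (SE, adjusted p = 0.0362, edgeR quasi-likelihood test), with means of 120.3 ± 22.2 and 60.1 ± 9.74 CPM (SD, n = 3). Cntnap3 was 24.0, 16 and 35.0 CPM on vehicle and 8.89, 14.6 and 7.46 CPM on caffeine, the lowest log2 fold change of the list (-1.27 ± 0.30, adjusted p = 0.0721). Its groups were apart, by 16 against 14.6 CPM at the nearest. The other members of the family lay between -0.19 (Cntnap2) and 0.14 (Cntnap5b), and Cntnap5c, the highest per kilobase, was 0.13 ± 0.20 (adjusted p = 0.789). Cntnap5a, Cntnap5b and Cntnap5c are close paralogs, so reads that match more than 1 of them could have been lost or split, and their values are uncertain.

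The calls depended on single libraries. Without vehicle replicate 1, vehicle replicate 3 or caffeine replicate 3, 0 members passed, while 18, 16 and 15 were lower at an unadjusted p under 0.05. Without vehicle replicate 2 there were 6 calls and without caffeine replicate 1 there were 8, all lower. All genes called numbered 3, 0 and 0 in the first 3 of these fits and 190 and 341 in the last 2, against 153 in the main fit. With sequencing lane as a covariate 0 members passed, beside 9 of all genes, with a smallest adjusted member p of 0.0553. In that fit 21 members were lower at an unadjusted p under 0.05. Shares of all genes at an unadjusted p are given only for the main fit, so these member counts have no background. DESeq2 called 13 members and 766 of all genes. Over the 6 fits that leave out a library of either group, the log2 fold change ran from -1.14 to -0.90 for Cntnap4, from -0.65 to -0.55 for Slitrk1 and from -0.75 to -0.55 for Flrt3. An exact permutation test of 3 against 3 libraries cannot go below p = 0.1, so single genes were tested only in the fit across all genes.

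Taking plain differences in mean log2 CPM rather than a fit, 49 of 56 members were lower on caffeine within lane 6, with 2 libraries a group and a median of -0.17, and within lane 7, with 1 library a group, 44 were lower with a median of -0.30. Both lanes were lower for 42 members and higher for 5. These lane counts were taken over the members only, so no share of all genes stands beside them. The 21 members with an unadjusted p under 0.05 were lower in both lanes, and 19 of them differed more in lane 7. That p came from the same libraries, and for 18 of the 21 the groups were apart. Lower values in both lanes followed from that for the 18, so they are no separate support. Lane 6 and lane 7 gave -0.57 and -0.66 for Slitrk1, -0.59 and -0.80 for Flrt3, -0.81 and -1.37 for Cntnap4 and -0.56 and -2.00 for Cbln4. Caffeine replicate 3, from lane 7, had a median deviation of -0.27 over the members from their means over all libraries, against -0.07 and -0.12 for caffeine replicates 1 and 2.

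**Figure D4:**
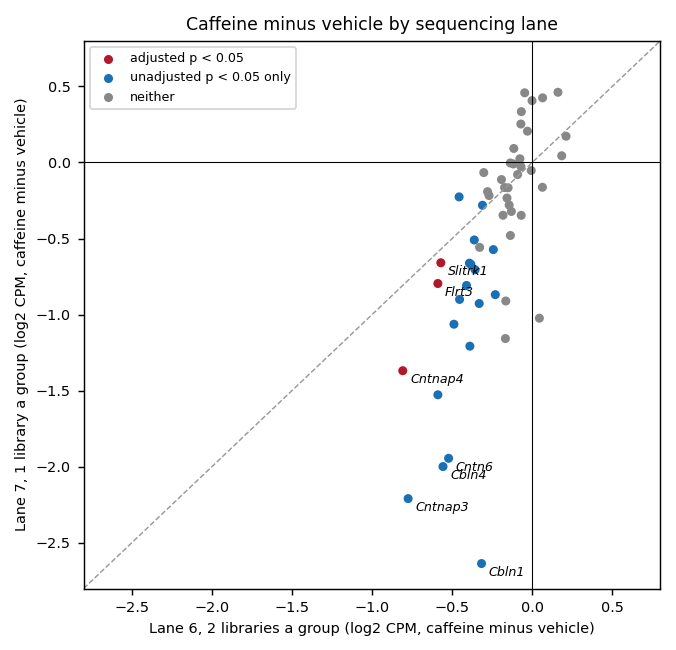
Difference in log2 CPM between caffeine and vehicle Tg4-42 mice on lane 6 (x axis, 2 libraries a group) and on lane 7 (y axis, 1 library a group) for 54 tested members, Slitrk6 left out for scale; the dashed line marks equal values and colours give the test over all libraries. Most points lie below 0 on both axes, and the 4 lowest on lane 7, Cbln1, Cntnap3, Cbln4 and Cntn6, were further from 0 there than on lane 6.

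Vehicle Tg4-42 mice were compared with WT mice to ask how the transgenic line differed from WT. The transgene, other traits of the line and its loss of CA1 neurons cannot be told apart in this comparison. No member passed (0 of 56), beside 0.0979% of all genes called, and every member's adjusted p was 1.00. At an unadjusted p under 0.05, 0 members were lower, against 1.09% of all genes, and 2 were higher, which is 3.57% against 1.65%. DESeq2 called 0 and had 3 higher before adjustment. The 2 were Cntn3, at 49.9, 40.8 and 64.6 CPM in WT and 68.0, 60.3 and 76.8 CPM in vehicle Tg4-42 mice (0.40 ± 0.15), and Adgrl3 (0.31 ± 0.14), and both overlapped between groups. Tenm1, a teneurin on the X chromosome, came next (0.28 ± 0.13) with 158, 150.3 and 160.5 against 208, 181 and 181 CPM, which did not overlap. The vehicle Tg4-42 libraries lay entirely above WT for 3 members, Tenm1, Nrxn3 and Ptprf, or 5.36% against 3.57% of all genes. They lay entirely below for 0 members, against 3.16%. The members' median was 0.09 against 0.00 over all genes, and 12 of 56 were below 0 against 49.5% of all genes. The median was 0.05 without vehicle replicate 1, where 20 were below 0, and 0.15 without vehicle replicate 2 and 0.14 without WT replicate 3. Removing the trend with gene span gave a median of 0.04 with 23 below 0.

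Caffeine Tg4-42 mice were also set against WT mice, which shares the caffeine libraries with the first comparison and the WT libraries with the second. The first and second comparisons share the vehicle Tg4-42 libraries, with opposite sign, so the 3 comparisons are not independent. No member passed (0 of 56), beside 0.415% of all genes, and the smallest adjusted p was that of Cntnap4 (-0.78 ± 0.17, adjusted p = 0.0558). DESeq2 called 10 members, all lower, and it also called more of all genes than the main fit did. At an unadjusted p under 0.05, 15 members were lower, or 26.8% against 8.65% of all genes, and 2 were higher, Nlgn2 and Adgrl1, or 3.57% against 6.78%. The caffeine libraries lay entirely below WT for 14 members, 25% against 9.67%, and entirely above for 1, Nlgn2, or 1.79% against 9.14%. The median was -0.15 against -0.01 over all genes, and it was -0.09 without caffeine replicate 3 and -0.07 with lane 6 alone. For the genes called between caffeine and vehicle, the values against WT were -0.46 ± 0.11 for Slitrk1 (adjusted p = 0.0791) and -0.55 ± 0.13 for Flrt3 (adjusted p = 0.0738). Lrrtm2 stood at -0.54 ± 0.12 (adjusted p = 0.0680) and Cbln4 at -1.12 ± 0.25 (adjusted p = 0.0724), while Cntn3 was at -0.09 ± 0.15 (adjusted p = 0.834).

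Adhesion genes are long. The 56 members had a median span of 164 kb against 19.2 kb over the tested genes with a position, and 30 of them, or 53.6%, exceeded 100 kb against 13.4%. Between caffeine and vehicle the median log2 fold change was -0.25 for the 30 members over 100 kb, where 11 were lower at an unadjusted p under 0.05, and -0.17 for the other 26, where 10 were. All tested genes over 100 kb had a median of -0.03, with 14% lower at an unadjusted p under 0.05, and those of 100 kb or less -0.01, with 9.21% lower. Slitrk1 and Flrt3 are among the shorter members. With the span trend removed, Cntnap4, Slitrk1 and Flrt3 were still called. The members' median moved from -0.24 to -0.12, and 42 members were below 0 instead of 47. All genes called fell from 153 to 95. The part of gene span in the lower values was not tested.

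A further 61 synaptic adhesion genes outside these families, all tested, had 34 below 0 and 27 above between caffeine and vehicle, with a median of -0.06. Of these 14 were lower and 1, Mdga1, higher at an unadjusted p under 0.05, beside 9.82% and 7.15% of all genes, and 2 passed the adjusted test, beside 0.881%. Clstn3, a calsyntenin that binds neurexins, was 639.6, 634 and 745 CPM on vehicle, 462, 338 and 332 CPM on caffeine and 646, 582 and 776 CPM in WT mice. It was called against vehicle (-0.83 ± 0.16, adjusted p = 0.0385) and against WT (-0.82 ± 0.16, adjusted p = 0.0297), and its caffeine libraries lay below the other 6. Lrrc4c, the netrin-G1 ligand, was 355, 303 and 383 CPM on vehicle and 246, 232 and 174 CPM on caffeine, also apart (-0.68 ± 0.14, adjusted p = 0.0428). Next by p were Igsf21 (-1.02 ± 0.24, adjusted p = 0.0649), Elfn1 (-0.82 ± 0.24, adjusted p = 0.106), L1cam (-0.49 ± 0.14, adjusted p = 0.106) and Ntm (-0.56 ± 0.17, adjusted p = 0.113), none of which passed. Between vehicle Tg4-42 and WT mice 12 of the 61 were below 0 and 49 above, with a median of 0.09, and between caffeine Tg4-42 and WT mice 29 were below and 32 above.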

How the data were processed

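Per the labels and the study's methods, libraries were made from sorted nuclei with a poly(A)-primed low-input kit (SMART-Seq v4, then Nextera XT), which does not keep strand, and sequenced as single reads. The authors aligned reads with STAR, counted them on exons with featureCounts and deposited 1 table of raw counts per gene for each library. The labels name builds mm10 and GRCm38, and the versions and the strand setting of counting are not given in the sources used here. Counts are per gene, so isoforms cannot be told apart, and exons of 20 of the 58 members overlap exons of another gene, 18 on the opposite strand.

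Symbols and positions were joined from GENCODE M21 (48349 of 48709 genes matched). Genes were kept by edgeR's filterByExpr (minimum count 10, minimum total 15). All 9 libraries were fitted together with edgeR 4.0.16 (R 4.3.3; TMM, robust quasi-likelihood F test, 1 mean per group, no covariate), with Benjamini-Hochberg adjustment over 17361 genes at 0.05 and a common biological coefficient of variation of 0.163. SE is the log2 fold change over the square root of F. CPM used TMM library sizes. The code was tested on simulated data. The members, families, marker and adhesion lists were chosen with earlier results of these data known, so no list was tested as a set. Named were members called in any comparison, up to 15 others by p between caffeine and vehicle, the 3 smallest p between genotypes, each family's most abundant member per kilobase, the 3 highest fold changes, those failing the filter, and, outside the members, the 6 other adhesion genes with the smallest p and called or most abundant markers. 1 member is counted in the totals and otherwise not reported here. Slitrk2, Slitrk3, Ptprd, Cntn5 and other members were named besides, after their values were seen. Replicates of a group differed by 8.27 to 19.2 in chi-square per gene, above sampling noise. Alternatives were RLE size factors, no filter, a mean of 50 counts, lane as a covariate, removal of the span trend, 2 groups alone, DESeq2 1.42.0 and leaving out each library; the edgeR version 4 method and lane 6 alone were chosen after the data were seen. Depth limits low genes most: 3 counts are 0.183 to 0.321 CPM, counting error only.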

Additional observations from a re-analysis of the deposited data

How the results depend on the processing

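Between caffeine and vehicle, members called numbered 3; the number was 13 with no filter on low counts, 13 with DESeq2, 6 with a mean of at least 50 counts, 0 with lane as a covariate, 0 with lane 6 only and 0 to 8 when a library was left out. DESeq2 and the fit without a filter shared 12 calls. Against WT, caffeine Tg4-42 mice had 0 members called; the number was 10 with no filter, 10 with DESeq2, 1 with the span trend removed, 2 with only the compared groups and 0 to 3 when a library was left out. Between vehicle Tg4-42 and WT mice it was 0, and 1 (Slitrk6) with no filter. The median of -0.24 between caffeine and vehicle was -0.12 with the span trend removed and -0.15 with lane 6 only, that of 0.09 between vehicle Tg4-42 and WT mice was 0.04 with the span trend removed, and that of -0.15 against WT was -0.07 with lane 6 only. All genes called between caffeine and vehicle numbered 153; 987 with no filter, 766 with DESeq2, 95 with the span trend removed, 9 with lane as a covariate, 0 with lane 6 only and 0 to 341 when a library was left out. For caffeine Tg4-42 against WT they numbered 72; 860 with no filter, 568 with DESeq2, 42 with lane as a covariate, 17 with lane 6 only and 16 to 287 when a library was left out. For vehicle Tg4-42 against WT they numbered 17; 74 with no filter and 26 with DESeq2. The cause of these shifts was not tested, apart from the fewer libraries or genes that some fits hold by construction. Between caffeine and vehicle, each of 314 alternative values kept its direction for the 21 members with an unadjusted p under 0.05, which that p had selected, while 10 of the other 35 changed sign across the fits that leave out a library. No paired analysis was possible because the labels give no replicate numbers shared across groups. With 3 libraries a group, genes at a few CPM such as Cbln1 and Slitrk6 carry the widest errors.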
